A study of Danio rerio with 12 samples.

Results

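The long arm of zebrafish chromosome 4 was represented by 190 CCCGGG sites whose methylation was read in pools of whole embryos. They were all the listed sites on chromosome 4 of the danRer7 genome build at position 27000000 or above that had at least 60 reads summed over the 12 libraries. They made up 4.93% of the 3854 listed sites of the arm and were 190 of 8912 sites in the genome that met the same read minimum, out of 64466 listed. Digital restriction enzyme analysis of methylation (DREAM) was used, in which SmaI first cuts unmethylated CCCGGG sites and XmaI then cuts the methylated ones, so that each sequenced fragment end shows the state of its site. Danio rerio embryos of a laboratory-bred wild-type stock were pooled in groups of 20 and sampled at 72 hours post fertilisation. The 4 control pools had no exposure, 4 pools were kept in 0.1 mM and 4 in 1 mM sodium arsenite for 72 hours. Each pool gave 1 library. A level, the share of methylated reads at a site in percent, averages over all cells, alleles and any genomic copies whose reads were assigned to that site, and these cannot be told apart.

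The long arm of this chromosome is known as a large block of heterochromatin. It replicates late in S phase, is crowded with repeats, and carries ribosomal and small nuclear RNA genes together with large families of zinc finger and NOD-like receptor genes, while the short arm resembles the other chromosomes. Its far end carries the sex-linked region of natural strains and, as described in other genome assemblies, ribosomal RNA genes used by the oocyte. CpG methylation in vertebrates is dense over repeats and low at the CpG-rich start sites of active genes.

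Members were almost uniformly methylated. Their median level, pooled over the 12 libraries, was 97.1% with quartiles of 93.8% and 98.9%. Of the 190 sites, 162 (85.3%) lay over 90%, 27 (14.2%) between 10% and 90%, and 1 (0.526%) under 10%. The partly methylated ones were concentrated in a deeply read stretch of 5838 bp, which held 15 members, 14 of them partly methylated. It begins 811 bp before position 61294663 and ends 379 bp after position 61299310. Outside the stretch 161 of 175 members (92.0%) lay over 90%, and 45 (25.7%) over 99%. No unmethylated read was seen at 25 members. The deepest of these, position 40405165, had 3261 reads, so that an unmethylated share above 0.092% would be unlikely to go unseen (3 counts of the total).

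**Figure D1:**
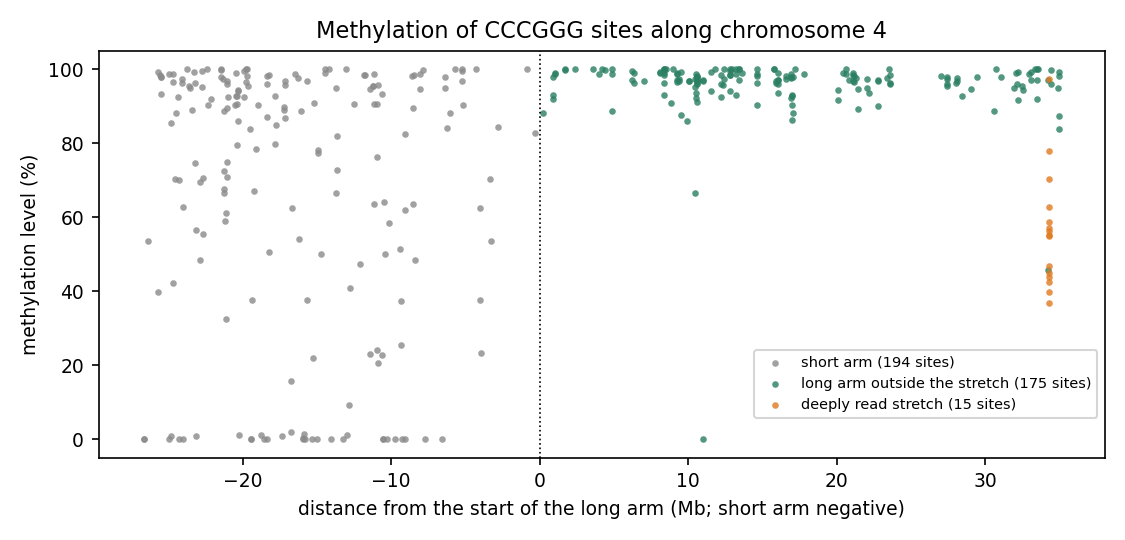
Methylation level (%) of each chromosome 4 site with at least 60 reads, pooled over 12 libraries, against its distance in Mb from the start of the long arm; grey points are short arm sites, green points long arm sites and orange points the stretch. Long arm sites crowd above 90% from end to end, while short arm sites spread down to 0%, and the stretch drops to 36.9%.

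The high level held at the members along the arm. In windows of 5 Mb the median member lay between 96.3% and 98.9% in each of the 7 windows from the start of the arm to 60 Mb. These windows had 9 to 56 members each, out of 166 to 776 listed sites, so most listed sites are not covered. The last window, from 60 Mb on, had a median of 83.8% over 31 members and of 97.1% over the 16 outside the stretch. At the arm boundary the first members inside, positions 27221295 and 27897018, were at 88.2% and 91.9%. The last short arm sites outside, at 26128003 and 26667730, were at 100% and 82.8%, with 207 and 64 reads. At the read minimum, members with 60 and 61 reads were at 100% and 98.4%, and the sites left out with 59 reads each were at 96.6% and 55.9%.

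The short arm gave 194 sites under the same read minimum and looked different. Its median level was 84.6%, with 33 sites (17.0%) under 10%, 78 (40.2%) in between and 83 (42.8%) over 90%. Averaged over sites read in every library, the short arm gave control values of 66.2%, 67.1%, 67.8% and 67.1% over 178 sites. Its 0.1 mM libraries were at 69.5%, 66.4%, 67.4% and 68.2%, and its 1 mM libraries at 67.8%, 67.3%, 67.5% and 67.8%. The long arm lay at 91.5% to 93.3% in the same 12 libraries, over 187 sites. All 12 libraries had the long arm above the short arm, by 23.3 to 26.5 points. The mean difference was 25.0 ± 0.918 points (SD over 12 libraries; two-sided permutation test over all sign changes, p = 0.000488, the smallest this test can give). Without the stretch the difference was 28.2 points. The test covers the spread between libraries that read the same sites, not the spread between arms.

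The size of the gap depended on which sites were compared. With at least 20 reads in every library, 89 long arm sites averaged 90.02% and 40 short arm sites 78.4%, a difference of 11.7 points. It was 14.1 points with at least 5 reads in every library, 10.6 when reads rather than sites were weighted equally, and 11.1 between the medians of sites. Leaving out sites under 10% on both arms, a choice made after seeing the data, gave 93.02% over 186 and 81.6% over 147 sites, a difference of 11.4 points. Among sites with their nearest listed CCCGGG at 100 to 600 bp, also chosen after seeing the data, the averages were 93.8% over 132 and 81.0% over 59 sites. Every one of these settings gave the long arm the higher level in the 12 libraries (p = 0.000488 in each, by the same permutation test). All of them include the stretch, which lowers the long arm values. Without it the long arm averaged 96.4% over 75 sites with at least 20 reads, and 95.4% over 117 with at least 5. It averaged 96.2% over 171 sites at 10% or above, and 95.4% over 126 with a neighbour at 100 to 600 bp. Weighted by reads, the long arm was at 95.35% without the stretch and 75.2% with it.

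The long arm also stood above every other chromosome in this measure. Mean levels of the 24 other chromosomes lay between 60.8% and 73.4%, with a median of 69.2%, and the short arm at 67.5% lay within that range. The long arm averaged 92.5% with the stretch and 95.7% without it. Sites under 10% formed 12.3% to 28.2% of the sites of the other chromosomes and sites over 90% formed 39.7% to 54.3%. These are descriptions of single chromosomes and were not tested.

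Few members departed from full methylation outside the stretch. Position 37965621 was the only member under 10%: all of its 210 reads were unmethylated in all 12 libraries, which allows a methylated share of up to 1.43%. Another 13 members were partly methylated. Of these, 11 lay at 80% or above, and the other two were position 37453439 at 66.6% and position 61212081 at 45.7%. The control pools had 71.2%, 56.2%, 61.0% and 59.5% at position 37453439, the 0.1 mM pools 73.2%, 63.3%, 72.6% and 78.9%, and the 1 mM pools 64.4%, 61.96%, 70% and 66.4%. The groups overlapped, and the SD over 12 libraries, 6.68 points, was close to the 5.32 points that counting error alone gives. Position 61212081 had 116 reads in all, from 1 to 23 a library, and ranged from 11.1% to 100% between libraries. Control library 2 was at 100% on a count of only 1 read.

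The 4 deepest members outside the stretch had SDs over 12 libraries of 0.082 to 1.06 points. At position 61959094 the SD was 1.06 points where reads alone give 0.654, and at position 61959341 0.304 against 0.245. It was 0.092 against 0.070 at position 35342542 and 0.082 against 0.098 at position 61389120. Levels of a neighbouring pair near the end of the arm differed. Position 61959094, with 38353 reads, had a control mean of 83.2% ± 1.04, a 0.1 mM mean of 84.4% ± 0.710 and a 1 mM mean of 83.7% ± 1.28 (SD over 4 libraries). Its neighbour 247 bp away, position 61959341, was at 98.0% ± 0.202, 98.3% ± 0.338 and 97.8% ± 0.175. All 12 libraries had the neighbour higher, with 82.3% to 85.4% at the former and 97.6% to 98.7% at the latter. Position 61389120 was at 99.8% with 20449 reads and position 35342542 at 99.9% with 25979. Adjacent members under 600 bp apart outside the stretch differed by a median of 2.68 points in 38 pairs, with over 10 points in 6 of them. Those farther apart differed by a median of 2.15 points in 135 pairs, with over 10 points in 9 of them.

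The arm was rich in CCCGGG sites set at repeated distances, a property that the choice of members did not use. Among 3853 distances between neighbouring listed sites, 1116 (29.0%) had a length that occurred at least 10 times on the arm. That share was 3.91% of 1074 distances on the short arm and 2.88% to 10.2% on the 24 other chromosomes, which had 1834 to 3482 distances each. A count of 10 within a set is easier to reach among more distances, so the shares are not on one scale. Chromosome 5, with the 3482 distances, had 6.63%. The most frequent distance was 854 bp, found 114 times, followed by 318 bp with 108 and 159 bp with 85. Several of the frequent lengths, 159, 212, 318, 477 and 636 bp, were multiples of 53 bp. Of 1858 distances under 1000 bp, 386 (20.8%) were such multiples on the long arm and 0 of 168 on the short arm, against 0.336% to 9.91% on the other chromosomes. The unit was picked after the lengths had been seen, and these counts describe the reference assembly rather than the embryos.

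Most listed sites of the arm gave no read. This was so for 2810 of 3854 sites (72.9%), against 302 of 1075 (28.1%) on the short arm and 37.6% on the other chromosomes. Sites beside a recurring distance were without reads in 75.1% of 1577 cases and the others in 71.4% of 2277. How reads that match several places were handled is not given in the sources used here, so the part of repeats in these empty sites was not tested. Members beside a recurring distance had a median level of 97.6% (78 sites), against 96.7% for the other 112, with 1 and 14 sites of the stretch among them. Outside the stretch the medians were 97.8% over 77 and 97.0% over 98 members. A cluster around position 37590999 holds recurring distances. The sites given here lay below the 97.8% median, and the other sites of the cluster were not summarised. Positions 37589421 and 37589739, 318 bp apart, were at 95.9% and 97.2%, and positions 37590999 and 37591158, 159 bp apart, at 96.2% and 91.1%.

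The stretch was the exception to the arm in depth and in level. It was set apart for its depth, so its depth is a description. Its 15 sites took 618903 reads, or 60.4% of the reads of all members and 3.23% of all reads in the series. Levels ran from 36.9% at position 61294663 to 97.3% at position 61296643, with a median of 55.2%. In every library the stretch mean lay below that of the other members, with a difference of -39.3 ± 2.37 points (range -43.6 to -34.0; SD over 12 libraries, two-sided permutation test over all sign changes, p = 0.000488, the smallest this test can give). With at least 20 reads in every library it was -40.4 points. Because all libraries read the same stretch, the test covers the spread between libraries, not the spread between sites or regions of the arm.

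Within the stretch, levels changed between sites that lie close together. The first 4 sites, over 1477 bp, were at 43.8%, 36.9%, 42.5% and 46.8%. Position 61296643 stood at 97.3% with 55914 reads, and the next site, 291 bp on, at 58.6% with 13327. The 2 following sites, 468 bp apart, were at 54.9% and 55.2%. Positions 61299048 and 61299059, 11 bp apart, were at 44.8% and 39.7%. The deepest site of the arm, position 61299279 with 231229 reads, was at 57.2%, its neighbour 31 bp away, position 61299310, at 70.5%, and the last site of the stretch at 56.3%.

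**Figure D2:**
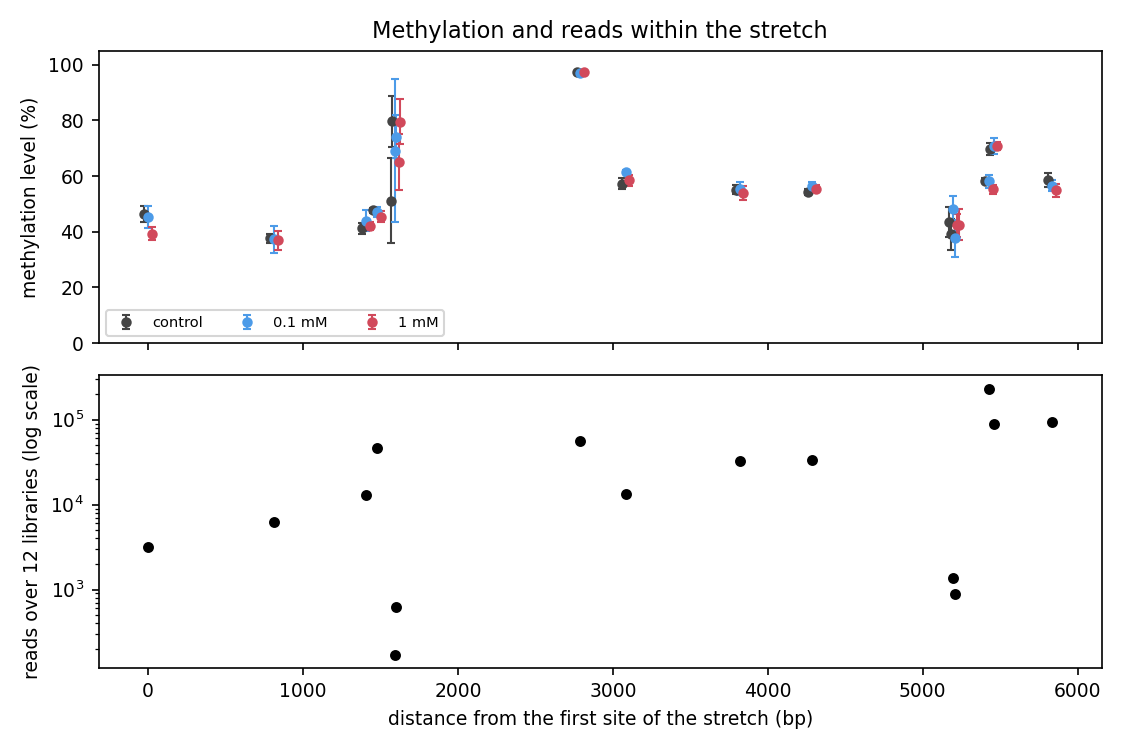
Upper panel: methylation level (%) of the 15 sites of the stretch against distance from its first site (bp), as group means with SD over 4 libraries, in black for controls, blue for 0.1 mM and red for 1 mM. Lower panel: reads of each site summed over 12 libraries on a log scale. Most sites sit between 37% and 71% in all groups, with 97.3% at 2791 bp.

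The 3 deepest partly methylated sites each stayed within a range of 10 points over the 12 pools, but most sites of the stretch had an SD above counting error. At position 61299279 the control pools had 57.7%, 58.2%, 58.3% and 59.4%, the 0.1 mM pools 60.4%, 55.7%, 59.97% and 56.8%, and the 1 mM pools 57.4%, 55.1%, 53.3% and 55.2%. Pools differed by more than counting error: the SD over 12 libraries was 2.17 points where reads alone give 0.378. Position 61299310 ranged from 67.6% to 73.6% and the last site from 52.2% to 61.4%, with SDs of 2.01 and 2.67 points over 12 libraries. Of the 14 sites of the stretch with at least 20 reads in every library, 12 had an SD above that of counting error, with a median ratio of 1.54. The ratio was 1.15 at the 70 other members over 90% with that depth, of which 44 had an SD above counting error. At the 5 members at 10% to 90% outside the stretch with that depth the ratio was 1.26. All 5 had an SD above counting error. These ratios were not matched for depth, and excess spread shows more easily at deeper sites. The median site had 13327 reads in the stretch and 259 among all members outside it. An SD can also exceed counting error at a site through sampling alone, and these counts were not tested.

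The amount of reads from the stretch differed widely between pools, within groups as much as between them. Control libraries had 5.36%, 2.20%, 3.65% and 3.13% of their reads there, 0.1 mM libraries 2.16%, 2.93%, 2.86% and 3.70%, and 1 mM libraries 2.57%, 1.91%, 3.20% and 4.96%. Control library 1 and 1 mM library 4 stood highest and 1 mM library 2 lowest, a ratio of 2.81 between the extremes. The other members of the arm together took 1.84% to 2.29% of reads, a ratio of 1.25, and the short arm 2.14% to 2.42%, a ratio of 1.13.

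**Figure D3:**
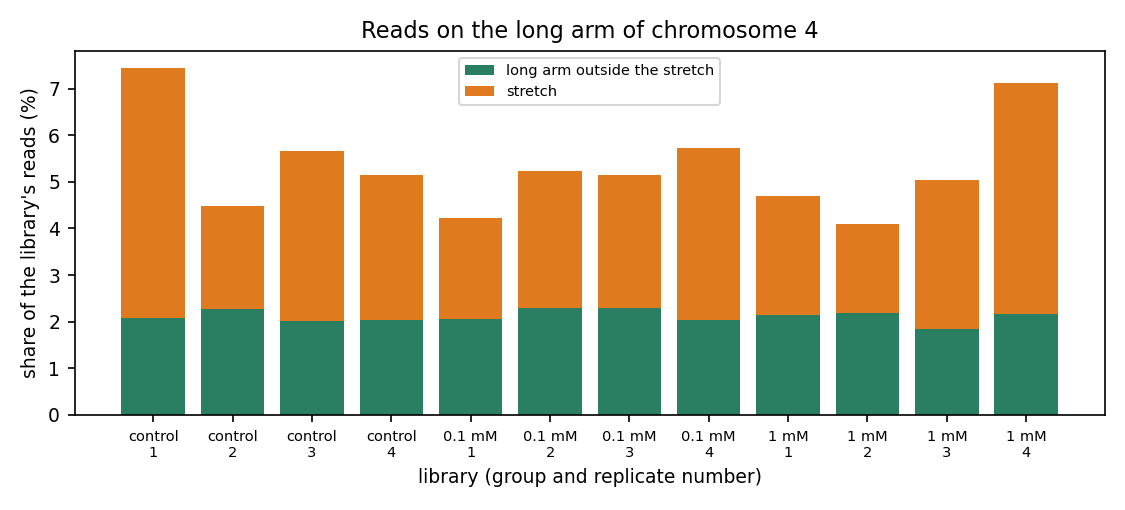
Share of each library's reads (%) at long arm sites, stacked as members outside the stretch (green) and the stretch (orange), for the 12 libraries by group and replicate number. The green part stays between 1.84% and 2.29%, while the orange part runs from 1.91% to 5.36%.

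Most sites of the stretch rose and fell in reads together. Control library 1 and 1 mM library 4 were the highest pair at 11 of its 15 sites, and 1 mM library 2 was the lowest at 10. Among 1522 sites elsewhere in the genome with at least 100 reads in every library, control library 1 and 1 mM library 4 were the highest pair at 12 (0.788%). The count in the stretch covers all 15 sites, of which 11 had that depth. The highest library exceeded the lowest by 2.67 to 3.52 times at the partly methylated sites of the stretch with that depth, against a median of 1.47 at the 1522 other sites, of which 53 (3.48%) reached 2.67. The ratio of 3.52 was at the first site of the stretch, where 0.1 mM library 4 and control library 3 were highest. The fully methylated position 61296643 also departed from the common pair, with a ratio of 2.18, control libraries 1 and 3 highest and 1 mM library 1 lowest. Some neighbouring sites had nearly the same reads, such as 4759 and 4899 in control library 1 at positions 61297670 and 61298138. Sites of the stretch are therefore not separate observations of depth. The counts of sites were made after the depths had been seen and were not tested.

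The mean level over sites of the stretch did not move detectably with its amount, in a relation chosen after seeing the data. At the 14 partly methylated sites, methylated reads took 0.879% to 2.83% of a library and unmethylated reads 0.702% to 2.06%, ratios of 3.21 and 2.94 between the extremes. Across the 12 libraries the mean level of the stretch and its share of reads had Pearson's r = -0.012 (permutation p = 0.992) and Spearman's rho = 0.126 (permutation p = 0.697), and r = -0.105 without the 2 libraries farthest from the median share. The share against the mean of the other members had r = -0.236 (permutation p = 0.452) and rho = -0.413 (permutation p = 0.184), and r = -0.564 without the 2 farthest libraries. Adjusted over these 2 relations, p was 0.992 and 0.903 for r and 0.697 and 0.367 for rho. The mean gives shallow sites the same weight as deep ones. Weighted by reads, the level of the stretch ran from 57.4% to 64.7%, and its relation to the share was not tested.

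The groups were then compared, to ask whether arsenite altered methylation of the arm. Outside the stretch the control means were 95.8%, 96.4%, 94.5% and 95.1%, those of the 0.1 mM pools 95.5%, 95.5%, 96.4% and 95.8%, and those of the 1 mM pools 96.0%, 96.0%, 95.4% and 95.7%. The groups overlapped, and the controls spanned the widest range. Over all 187 members read in every library controls averaged 92.3% ± 0.686, the 0.1 mM group 92.7% ± 0.536 and the 1 mM group 92.6% ± 0.289 (SD over 4 libraries).

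None of the 3 comparisons of this mean passed. Between 1 mM and control the difference was 0.325 points (95% interval -0.846 to 1.32, exact two-sided permutation p = 0.457). The 0.1 mM group lay 0.455 points above control (interval -1.02 to 1.81; exact permutation p = 0.314), and the difference between the doses was -0.13 points (-1.11 to 0.798, exact permutation p = 0.714). Without the stretch the differences were 0.342, 0.371 and -0.029 points. The adjusted p over 9 tests was 0.914 in each. With 4 against 4 libraries the smallest p possible is 0.0286, which is too large for 1 comparison alone to reach 0.05 once adjusted.

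The gap between the arms did not differ detectably with exposure either. Long minus short arm came to 25.2 ± 1.24 points for controls, 24.8 ± 1.16 for 0.1 mM pools and 25.0 ± 0.335 for 1 mM pools. The 1 mM group differed from control by -0.227 points (95% interval -1.78 to 1.80, exact permutation p = 0.771) and the 0.1 mM group by -0.364 points (-3.13 to 2.26, exact permutation p = 0.686). The share of reads on the arm came to 5.68% ± 1.27, 5.08% ± 0.622 and 5.24% ± 1.31 for control, 0.1 mM and 1 mM pools (exact permutation p between 0.486 and 0.914 for the 3 comparisons). The adjusted p over the same 9 tests was 0.914 for all of these.

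In the stretch alone, a set of 6 tests added after seeing the data, the groups also overlapped. Control means were 56.3%, 54.2%, 56.5% and 56.2%, 0.1 mM means 61.6%, 51.9%, 58.0% and 57.5%, and 1 mM means 56.4%, 55.8%, 54.8% and 56.9%. The 0.1 mM libraries 1 and 2 were the extremes of all 12. Position 61295445, with 172 reads, was at 100% and 40% there. Without this site, the only one in the stretch with fewer than 20 reads in some library, these 2 libraries were at 58.8% and 52.7%. The 0.1 mM group differed from control by 1.42 points (95% interval -4.61 to 7.31, exact permutation p = 0.514) and the 1 mM group by 0.133 points (-1.71 to 2.65, exact permutation p = 0.857); the adjusted p over 6 tests was 0.857 for both. Leaving out 0.1 mM library 2 gave 3.21 points against control and -3.07 points between the doses, each with an unadjusted exact permutation p of 0.0286, the smallest possible. Leaving out 0.1 mM library 1 gave -0.021 points against control. These values use all sites of the stretch. Without position 61295445 the 0.1 mM libraries 1, 3 and 4 were at 58.8%, 57.9% and 56.1%. Controls then lay at 55.9% to 56.5% and 1 mM pools at 53.7% to 56.2%. The groups thus overlapped even with 0.1 mM library 2 left out, and that setting was not tested.

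**Figure D4:**
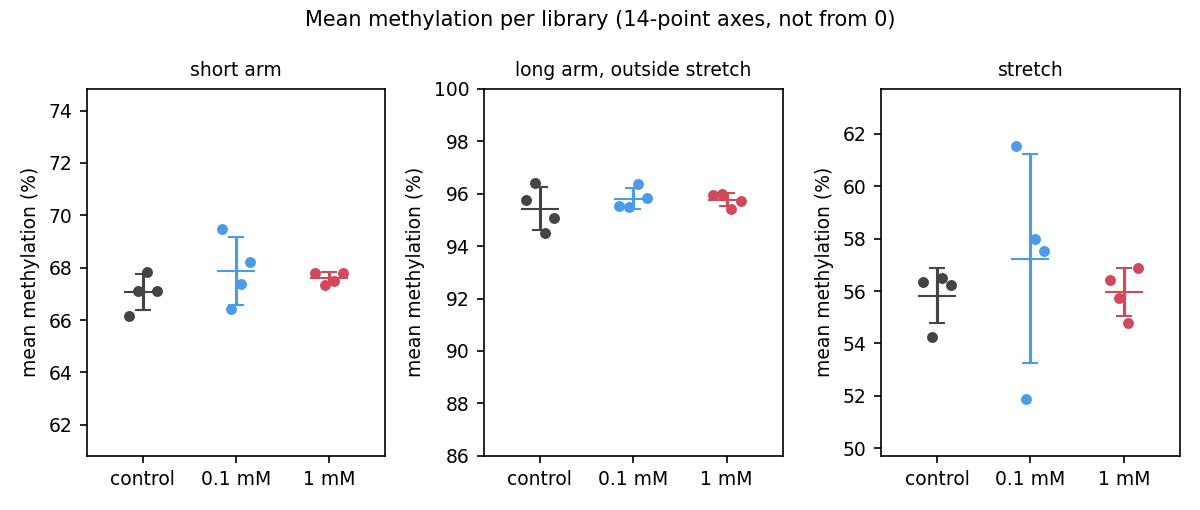
Mean methylation (%) of each library over short arm sites, long arm sites outside the stretch, and the stretch; points are the 4 libraries of a group, bars the mean and SD, and each axis spans 14 points without starting at 0. Groups overlap in all 3 panels, and the 0.1 mM libraries spread from 51.9% to 61.6% in the stretch.

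Single sites were tested with edgeR's quasi-likelihood test over the whole genome, in which 164 members had reads of both kinds and could be tested. Between 1 mM and control it called 0 members, where 0.107% of 7487 sites were called at an adjusted p under 0.05. Between 0.1 mM and control it called 0, with a background of 0.12%, and between the doses 0, with 0.107%. At an unadjusted p under 0.05 there were 2 members (1.22%, background 4.37%), 5 (3.05%, background 4.43%) and 3 (1.83%, background 4.37%), while limma on log2 odds gave 6 (3.66%, background 6.06%), 3 (1.83%, background 4.92%) and 4 (2.44%, background 6.45%), none of which passed adjustment. The smallest adjusted edgeR p of any member was 0.909, 0.915 and 0.890 in the 3 comparisons. Group means were 10 points or more apart at 7, 5 and 6 of 161 members, or 4.35%, 3.11% and 3.73%, with a background of 18.1%, 18.8% and 18%. The background was not matched in level or depth. The 190 members had a median level of 97.1% and a median of 304.5 reads, against 89.1% and 106 over the 8912 sites of the genome. The lower shares of members here and at an unadjusted p were not tested.

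**Figure D5:**
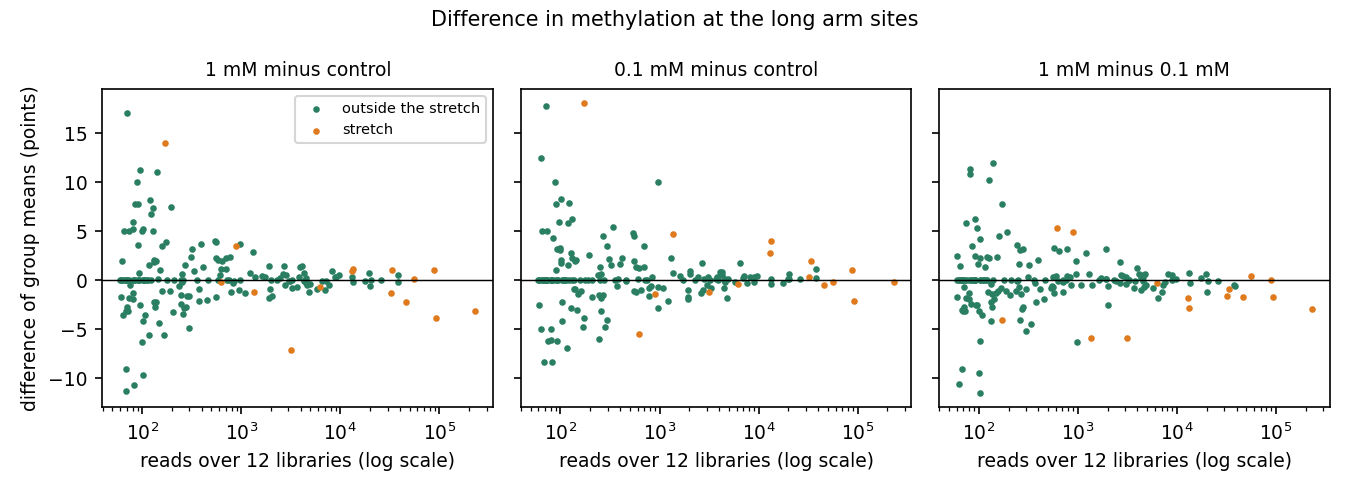
Difference between group means (points) at each member read in every library, against its reads over 12 libraries (log scale), for the 3 comparisons; green points lie outside the stretch and orange points in it. The scatter narrows with depth, from beyond 10 points at the shallowest members to under 5 points at those with the most reads.

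Among the 89 members with at least 20 reads in every library, the median difference was 0.00 points between 1 mM and control, with 44 higher and 39 lower and a range of -7.12 to 4.01. Over the 2286 sites of the genome with that depth it was 0.02 points. Between 0.1 mM and control the median was 0.08 points, with 50 higher and 34 lower and a range of -5.52 to 10.0, against 0.00 points over the genome. Between the doses it was -0.045 points, with 36 higher and 48 lower at 1 mM and a range of -6.33 to 5.31, against 0.028 points over the genome. Of the 2286 sites, 1202 were higher and 1003 lower at 1 mM than in controls, 1094 and 1116 at 0.1 mM, and 1205 and 1001 at 1 mM than at 0.1 mM. Both doses share the same controls.

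The members with the smallest p did not pass. For 1 mM against control they were positions 43902237 and 55439050 and the last site of the stretch. Position 43902237 was at 94.2%, 93.8%, 95.2% and 100% in controls and at 97.9%, 98.9%, 99.3% and 98.5% at 1 mM, so that control library 4 lay above all exposed pools. Position 55439050, with 83 reads, was at 100% in all libraries but the fourth of each dose, at 66.7% and 57.1%. The last site of the stretch had means of 58.7% ± 2.50 for controls and 54.8% ± 2.35 for 1 mM pools (SD over 4 libraries), with overlap through control library 1 at 55.3%. For these the adjusted edgeR p was 0.909.

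For 0.1 mM against control the smallest p belonged to positions 43056869, 35342542 and 37591634. At position 43056869 the control pools had 98.3%, 97.9%, 97.9% and 97.7%, the 0.1 mM pools 97.2%, 95.9%, 95.8% and 95.7%, and the 1 mM pools 96.9%, 97.0%, 96.2% and 97.1%. Both exposed groups lay below the controls there without overlap, by -1.80 and -1.16 points, with adjusted edgeR p of 0.915 and 0.909. Position 35342542 was at 99.84% ± 0.075 and 99.95% ± 0.036 in these groups, and position 37591634 at 93.9% ± 7.52 and 98.7% ± 1.46, its low control being library 3 at 83.3%. Between the doses the lowest ranks went to positions 39418485, 61959341 and 43060867. The 0.1 mM pools had 95.2%, 95.5%, 97.6% and 94.2% at position 39418485 and the 1 mM pools 98.4%, 100%, 98.2% and 98.4%. Its edgeR p was 0.890 after Benjamini-Hochberg adjustment over all sites.

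Groups did not overlap at 3 of 161 members between 1 mM and control (1.86%, background 1.43%), at 3 between 0.1 mM and control (1.86%, background 1.38%) and at 1 between the doses (0.621%, background 1.65%). All 3 in the first comparison were lower at 1 mM (background 0.653% lower and 0.781% higher), namely position 43056869 and, in the stretch, its first site and position 61299279. In the second, 2 were higher (background 0.767%) and 1 lower (background 0.611%), and in the third the 1 was higher (background 0.866%, against 0.781% lower). The first site of the stretch was named after its values were seen. Its control pools had 48.9%, 48.8%, 42.8% and 45.4% and its 1 mM pools 40.1%, 37.0%, 38.2% and 42.1%, a difference of -7.12 points, with 0.1 mM pools between 41.2% and 50.5%. At position 61299279 the difference was -3.17 points. Neither passed (edgeR adjusted p = 0.909 for both). Position 61296934, also in the stretch and named after its values were seen, was higher at 0.1 mM, at 60.6% to 62.4% against 55.5% to 60.1% in controls.

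Library totals were alike, at 1425613 to 1666841 reads in controls, 1485862 to 1822127 at 0.1 mM and 1491247 to 1700854 at 1 mM. Members had between 60 and 231229 reads over the 12 libraries, with a median of 304.5, and 89 of the 190 had at least 20 reads in every library. Reads carry no molecular identifiers, and the limits from a count of 0 cover counting error only.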

How the data were processed

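The deposited library files list methylated and unmethylated reads per CCCGGG site of danRer7 (build per the submitters' processing notes; the aligner is not given in the sources used here). Read columns by the authors have the unit of expected counts here because the deposited columns end with a correction factor that is not whole; site values were whole and needed no rounding. The authors' deposited adjusted levels, in percent, use that factor (1.198 to 1.324), which raises levels; per the series design text it came from spiked standards. Levels here are unadjusted shares of reads. A deposited series table, whose 12 columns were all matched to samples, held 55 members with the same adjusted values.

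Library means covered sites read in every library and were compared by exact two-sided permutation over 70 splits of 4 against 4 libraries, with Benjamini-Hochberg adjustment; 95% intervals invert this test. Differences within libraries used all 4096 sign changes. edgeR 4.0.16 in R 4.3.3 fitted a coverage term per library and a group term on methylated reads to all 12 libraries. The fit covered every site of the genome with at least 60 reads and reads of both kinds (threshold 0.05 after Benjamini-Hochberg adjustment). It was also run on simulated data with the same excess spread at all sites, and that outcome is not used as support here. limma 3.58.1 used log2 odds with a pseudocount of 1. Summaries came from scipy 1.17.1, pandas 2.3.3 and numpy 2.4.6 under Python 3.11.15. Nothing in the labels says that pools came from separate spawns, so p-values measure the spread between these pools. Over the members, the stretch included, the 18 replicate pairs differed in depth beyond counting error (chi-square per degree of freedom at least 5.75).

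Sites named are the 3 members with the smallest p in each comparison, members under 10%, the 4 deepest inside and outside the stretch, and those at the boundaries; others illustrate a count. Members, lists and tests were chosen with earlier results of these data known. No genome or gene annotation of danRer7 was used here, so members are given by position without gene names or sequence.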

Additional observations from a re-analysis of the deposited data

Results flagged for a closer look

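Over 8 library measures and 15 named sites, 69 sets of 4 libraries were searched for a highest or lowest library far from its nearest neighbour, and 7 held such a library; chance gives about 1 in 20, or 3.45, and named sites chosen for small p need not follow that rate. In the stretch, control library 2 had a mean of 54.2%, with the other controls at 56.2% to 56.5%; with at least 20 reads in every library the 4 controls lay at 55.9% to 56.5%. Members outside the stretch took 1.84% of the reads of 1 mM library 3 and 2.14% to 2.18% in the other 1 mM libraries. At position 39418485, 1 mM library 2 was at 100% with the others at 98.2% to 98.4%. At position 43056869, 0.1 mM library 1 was at 97.2% with the others at 95.7% to 95.9%. At position 55439050, 0.1 mM library 4 was at 66.7% and 1 mM library 4 at 57.1%, with 100% in the other libraries and 83 reads in all. At position 61296643 in the stretch, 0.1 mM library 3 was at 97.8% with the others at 96.7% to 96.9%.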

How the results depend on the processing

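The difference between arms within libraries and that between the stretch and the other members kept their sign and their side of the threshold in all settings tried, at 10.6 to 28.2 points and at -40.4 to -32.5 points; leaving out single libraries gave 24.9 to 25.2 and -39.8 to -38.9. limma called 0 members in each comparison, and edgeR 0 under each of its settings, which were the replicate block, at least 20 reads in each library, 2 groups alone, each library left out and 2 libraries left out. Over the whole genome edgeR called 8, 9 and 8 sites with the summed minimum of 60 reads and 0 in each comparison with at least 20 reads in each library; the cause was not tested.

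No comparison of group means over libraries passed after adjustment in any setting tried. None could have, because the smallest p possible was 0.0286 and each was adjusted beside the unchanged p-values of the other comparisons. The settings therefore show only how the differences moved. Small differences changed sign, and the cause was not tested. For 1 mM against control, weighting by reads gave -0.158 for the long arm mean and 1.09 for the gap between arms; for that mean it also gave 1.55 for 0.1 mM against control and -1.71 between the doses, of unchanged sign but over 3 times the unweighted values. For 0.1 mM against control that gap was 1.22 with weighting by reads and 0.256 with 20 reads in every library, and the read share was 0.072 without the stretch. Between the doses, adjusted levels gave 0.066 for the mean, the gap was -0.133 with weighting and -0.567 with 20 reads, and the read share was -0.088 without the stretch and -0.614 of chromosome 4 reads. With 20 reads the stretch mean at 1 mM differed from control by -0.857. Without control library 1 and 1 mM library 4, chosen after seeing the data for their large read share in the stretch, the gap was 0.249 at 1 mM and 0.054 at 0.1 mM, the read share between doses -0.470 on the arm and -0.356 in the stretch, and the stretch mean at 1 mM -0.0086. Leaving out single libraries gave these ranges for 1 mM against control, 0.1 mM against control and between doses: long arm mean 0.062 to 0.577, 0.192 to 0.706 and -0.372 to 0.059; gap between arms -0.748 to 0.191, -0.885 to 0.140 and -0.367 to 0.491; read share -1.07 to 0.143, -1.002 to -0.014 and -0.470 to 0.540; stretch mean -0.396 to 0.528, -0.021 to 3.21 and -3.07 to 0.154; stretch share -1.03 to 0.164, -1.13 to -0.081 and -0.356 to 0.662.

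Replicate numbers are shared between groups. Deviations of same-numbered libraries from their group means had a correlation over 0.1 in 3 of 12 pairs (across 89 members, range -0.137 to 0.229). Correlations between differently numbered libraries were not computed, so these values cannot decide whether the numbers pair the samples. With the replicate block the long arm mean gave 0.325, 0.455 and -0.13 points, with p of 0.375, 0.5 and 0.625 by exact permutation within the 4 pairs. Depth limits the shallow members most.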
